A study of Solanum lycopersicum with 8 samples.

Results

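The genes described here were higher after gibberellin (GA3) in young leaves of the tomato cultivar M82. In the procera mutant proΔGRAS their mean rise, by genotype or by GA3, stayed below set limits, so small rises were allowed. There were 57 such genes among the 34722 genes of the table. All seedlings, of both genotypes, had received paclobutrazol, an inhibitor of GA synthesis, at 10 mg/l on each of 3 days. The 4 groups were M82 without GA3, M82 with 100 µM GA3, the mutant without GA3 and the mutant with 100 µM GA3, and leaves were taken 3 hours after GA3. Each group held 2 libraries, made from RNA of young leaves. The mutant is 1 line, and the labels state biological replicates without saying whether each was 1 plant or a pool, so the spread between libraries may be partly technical. Libraries are called by the number in the table, which is 1 and 3 in every group except M82 with GA3, where it is 1 and 2. The labels do not say what a number stands for.

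GA is perceived by the GID1 receptor, which then binds DELLA proteins and leads to their degradation. DELLA proteins are nuclear regulators of the GRAS family that restrain GA responses, and PROCERA is the tomato DELLA. Loss of DELLA therefore mimics GA treatment for many genes, which are then high in the mutant without added hormone. The genes below are those of the M82 response whose mean rise in the mutant stayed below the limits given next.

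Members were chosen from the values of all 8 libraries, so what the choice fixed is given as a description, and nothing is read from tests of it. CPM are raw counts scaled to the library total, and levels were compared as log2(CPM + 0.5). CPM are not scaled by gene length, so a higher CPM in one gene than in another may reflect its length. A member had a mean of at least 2 CPM over the 8 libraries. The gap in M82, from the higher library without GA3 to the lower library with GA3, was at least 0.5 log2 units. On the means, the mutant without GA3 exceeded M82 without GA3 by less than 0.25, and the mutant with GA3 exceeded the mutant without it by less than 0.3. Of the 34722 genes, 14393 reached the mean of 2 CPM and 362 of those also had the gap in M82. The genotype limit alone left 111 of these 362 and the GA3 limit in the mutant alone left 185, and both together left 57.

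The table gives only identifiers, and 0 of 34722 matched the 41476 genes of the reference table used here. Gene names, functions and sequences are therefore not given, and the transcript of PROCERA and the markers of leaf and other tissues were not analysed here. Members are named by identifier, with 2 in each direction per comparison, and the chromosome is the number that the identifier carries. In these bulk samples, fewer cells of a type and less RNA per cell cannot be told apart.

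Library totals ran from 14395465 to 18483028 counts. The top 100 genes by abundance held 45.5% of the counts in M82 library 3 without GA3 and 50.3% in M82 library 2 with GA3. In the other 6 libraries they held 31.4% to 41.3%. Each member is read against these totals, and the choice of scaling matters. With TMM scaling, which corrects for such dominant genes, 91 genes met the rule, and 32 of the 57 were among them. With RLE scaling, 86 genes met it, again with 32 of the 57. Scaling moved the median of all 14393 genes. For mutant minus M82 with GA3 this median was 0.29 with library totals and -0.01 with TMM. For GA3 minus no GA3 in the mutant it was 0.12 and -0.02.

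**Figure D1:**
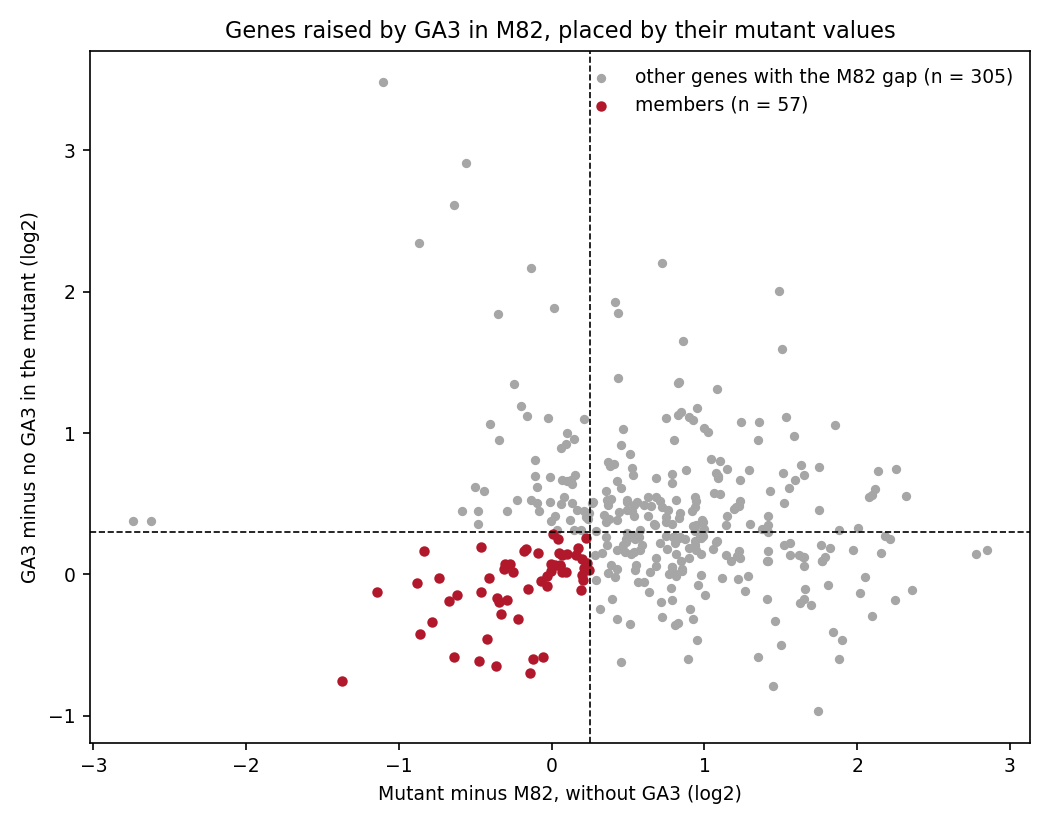
The 362 genes with the gap in M82, each placed by the mutant minus M82 difference without GA3 (x axis, log2) and by the GA3 minus no GA3 difference in the mutant (y axis, log2). Dashed lines mark the limits of 0.25 and 0.3, and the 57 members (red) fill the lower left field, reaching down to -1.37 and -0.75.

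Genes near the limits show that the set has no sharp edge. Just inside the limit on the gap lay values of 0.504, 0.505 and 0.512, and just outside it 0.499, 0.495 and 0.488. For the genotype limit the nearest members had differences of 0.247, 0.232 and 0.226, and the nearest genes left out had 0.281, 0.289 and 0.319. For the GA3 limit in the mutant, the nearest members stood at 0.285, 0.259 and 0.254 and the nearest genes left out at 0.315, 0.316 and 0.316. The lowest mean levels among members were 2.05, 2.11 and 2.15 CPM, and genes with means of 1.996, 1.77 and 1.55 CPM met the other limits only.

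The same rule was also applied with genotypes or directions exchanged, as a description. With the genotypes exchanged, 84 genes met it, with the gap in the mutant and M82 within the limits, against 57 for the rule itself. With the direction reversed, 53 genes had a downward gap in M82 with the mutant within the limits. With both changed, 11 genes had it in the mutant with M82 within the limits. Without any limit on the other genotype, 362 genes had the upward gap in M82 and 262 had it in the mutant. All these counts used library totals, on which the median GA3 difference of all genes was 0.12 in the mutant and -0.05 in M82. With TMM scaling the rule itself gave 91 genes. The exchanged and reversed rules were not applied with that scaling, so the order of these counts is not interpreted.

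In M82 the members were higher with GA3 by a median of 0.89 log2 units, from 0.60 to 2.07, against a median of -0.05 over all 14393 genes. The other 305 genes with the gap had a median of 1.08. The members' counts summed to 3509 and 3753 CPM in the M82 libraries without GA3 and to 6288 and 7029 CPM in those with GA3. Their mean levels over the 8 libraries ran from 2.05 to 681 CPM, with a median of 18.4.

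Solyc03g006100.2, on chromosome 3, had the largest gap in M82. Its level was 6.67 and 9.10 CPM without GA3 and 34.5 and 34.0 CPM with GA3 in M82. In the mutant it was at 3.90 and 9.67 CPM without GA3 and at 7.11 and 5.69 CPM with GA3. Both M82 libraries with GA3 stood above all other libraries, and the 4 mutant libraries spread around the untreated M82 values. The GA3 difference was 2.07 in M82 and 0.04 in the mutant on the log2 scale, and M82 with GA3 was 5.36-fold above the mutant with GA3.

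Solyc08g081620.2, on chromosome 8, had the next largest gap. In M82 it was at 4.63 and 6.67 CPM without GA3 and at 19.9 and 19.7 CPM with GA3. In the mutant, library 1 was at 14.7 CPM without and 14.9 CPM with GA3, and library 3 at 2.53 and 3.11 CPM. The libraries numbered 1 of the mutant thus lay between the 2 states of M82, and those numbered 3 lay below both. Its mean mutant minus M82 difference without GA3, 0.16, met the limit although 1 of the 2 mutant libraries was well above M82.

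**Figure D2:**
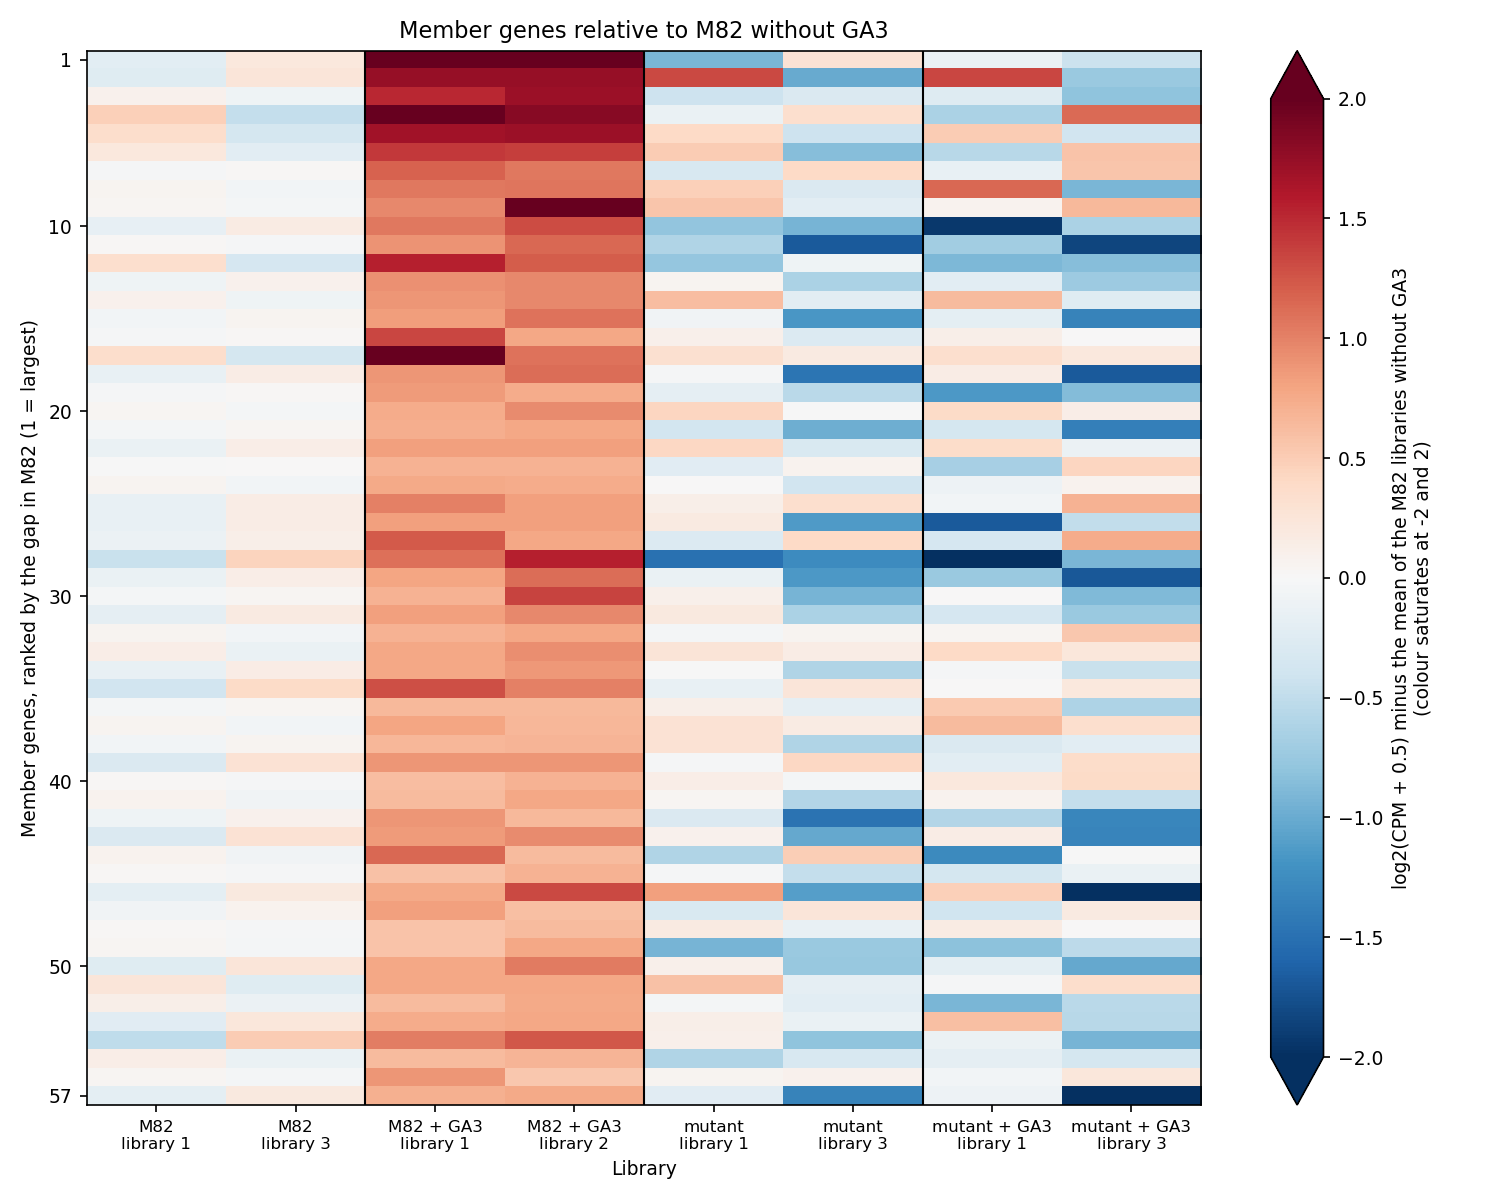
All 57 members (rows, ranked by the gap in M82) in the 8 libraries (columns), as log2(CPM + 0.5) minus the mean of the M82 libraries without GA3; red is higher and blue lower. Both M82 libraries with GA3 are red in every row, while many rows of the mutant differ between library 1 and library 3.

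By edgeR's quasi-likelihood test on all 18340 genes that passed its filter, the members included 0 called higher with GA3 in M82 at an adjusted p under 0.05, where 0.0164% of all genes were called. At an unadjusted p under 0.05 the test took 43 members (75.4%), against 4.58% of all genes. DESeq2 called 6 members (10.5%) higher, against 0.502% of all genes. All 57 members passed the filter on low counts. The rule used this contrast, so these counts describe the members and nothing is read from them.

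In the mutant without GA3 the members had a median difference of -0.14 from M82, from -1.37 to 0.25, while the median of all genes was 0.09. Their mean was lower in the mutant in 37 of 57 (64.9%), against 38.6% of all genes and 54.6% of the 7183 other genes inside the mutant limits. Both mutant libraries without GA3 lay below both M82 libraries without GA3 in 12 members (21.1%). The share was 12.6% of all genes and 17.1% of the other genes inside the mutant limits. These mutant libraries lay above both M82 ones in 3 members (5.26%), against 23% of all genes and 4.86% of those other genes. The limit on this difference keeps higher values out, so these shares are a description. By edgeR, 0 members were called lower at an adjusted p under 0.05, where 0.0981% of all genes were. At an unadjusted p under 0.05 it took 5 members (8.77%), against 3.65% of all genes. DESeq2 called 0 members lower, against 0.632% of all genes.

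In 11 members (19.3%) all 4 mutant libraries lay below both untreated M82 libraries. The share was 5.45% of all genes and 9.84% of the other genes inside the mutant limits. In these 11 members the means rose with GA3 in M82 and were lower in the mutant. The rule fixed the first and its limits favoured the second, so this is a description. Neither edgeR nor DESeq2 called any member lower in the untreated mutant at an adjusted p under 0.05. Solyc02g080210.2, on chromosome 2, lay furthest below M82. It was at 38.2 and 71.9 CPM in M82 without GA3 and at 113 and 155 CPM with GA3. In the mutant it was at 18.3 and 21.7 CPM without GA3 and at 4.74 and 27.5 CPM with GA3. Even the highest mutant library was below the lowest M82 library, and untreated M82 was 2.75-fold above the untreated mutant.

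Solyc07g052480.2, on chromosome 7, was next. In M82 it was at 306 and 299 CPM without GA3 and at 565 and 669 CPM with GA3. The mutant libraries numbered 1 were at 198 CPM without and 187 CPM with GA3, and those numbered 3 at 94.4 and 84.6 CPM. Treated and untreated mutant libraries of the same number were close, and all 4 lay below M82. Untreated M82 was 2.07-fold above the untreated mutant, a log2 difference of -1.14 for the mutant.

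GA3 in the mutant left the members with a median difference of -0.000887 on library totals, from -0.75 to 0.29. Relative to the median of all genes this was -0.12, and -0.13 with TMM or RLE scaling. GA3 libraries were higher in both numbers for 11 members (19.3%) and lower in both for 14 (24.6%). The other 32 (56.1%) went up in 1 number and down in the other. Among all genes 38.2% were higher in both, 11.5% were lower in both and 50.3% were split. Among the 7183 other genes inside the mutant limits these shares were 24.9%, 13.2% and 61.9%. The GA3 libraries of the mutant lay below both untreated ones in 3 members (5.26%), where 6.57% of all genes did so. They lay above both in 2 members (3.51%), where 26.9% of all genes did. Among the other genes inside the mutant limits, 7.45% lay below both and 14.3% above both. The limit on this difference keeps higher values out, so these shares and the calls that follow are a description. By edgeR, 0 members were called in either direction at an adjusted p under 0.05, as were 0% of all genes. At an unadjusted p under 0.05 it took 2 members (3.51%) as lower, against 1.19% of all genes, and 0 as higher, against 1.48%. DESeq2 called 0 members higher or lower, against 0.147% and 0.0109% of all genes.

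The most negative GA3 differences in the mutant means belonged to Solyc02g080210.2, described above, at -0.75, and Solyc06g009150.1, on chromosome 6, at -0.70. Neither has groups that separate. Solyc02g080210.2 was lower with GA3 only in library 1, and Solyc06g009150.1 went from 24.4 to 19.1 CPM in library 1 and from 6.02 to 2.64 CPM in library 3. The most positive ones, limited by the rule, were 0.29 in Solyc11g008960.1 and 0.26 in Solyc06g066370.2. These 2 genes stood at 14.6 and 15.5 CPM and at 18.5 and 16.8 CPM in M82 with GA3, and at 9.14 and 13.1 CPM and at 16.6 and 13.3 CPM in the mutant with GA3. Both values of the latter, in the mutant, lay under those of M82 with GA3, but by little. Every mutant library of Solyc06g066370.2 lay above untreated M82. Without GA3 it was at 12.9 and 11.8 CPM in the mutant and at 10.9 and 10.1 CPM in M82.

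The 2 members with the most counts, by mean CPM, behaved differently in the mutant. Solyc06g069730.2, on chromosome 6, was at 709 and 606 CPM in M82 without GA3 and at 1015 and 1113 CPM with GA3. In the mutant it was at 639 and 566 CPM without GA3 and at 349 and 453 CPM with GA3. The treated mutant libraries were thus the lowest of all 8 and the treated M82 libraries the highest. The GA3 difference was 0.70 in M82 and -0.60 in the mutant.

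Solyc06g072350.2, also on chromosome 6, was at 509 and 631 CPM in M82 without GA3 and at 1050 and 1229 CPM with GA3. In the mutant, library 1 was at 557 CPM without and 631 CPM with GA3, and library 3 at 206 and 176 CPM. Library 1 of the mutant lay within the range of untreated M82 with either treatment, whereas library 3 was 3.1-fold lower than library 1 on the means of both treatments.

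**Figure D3:**
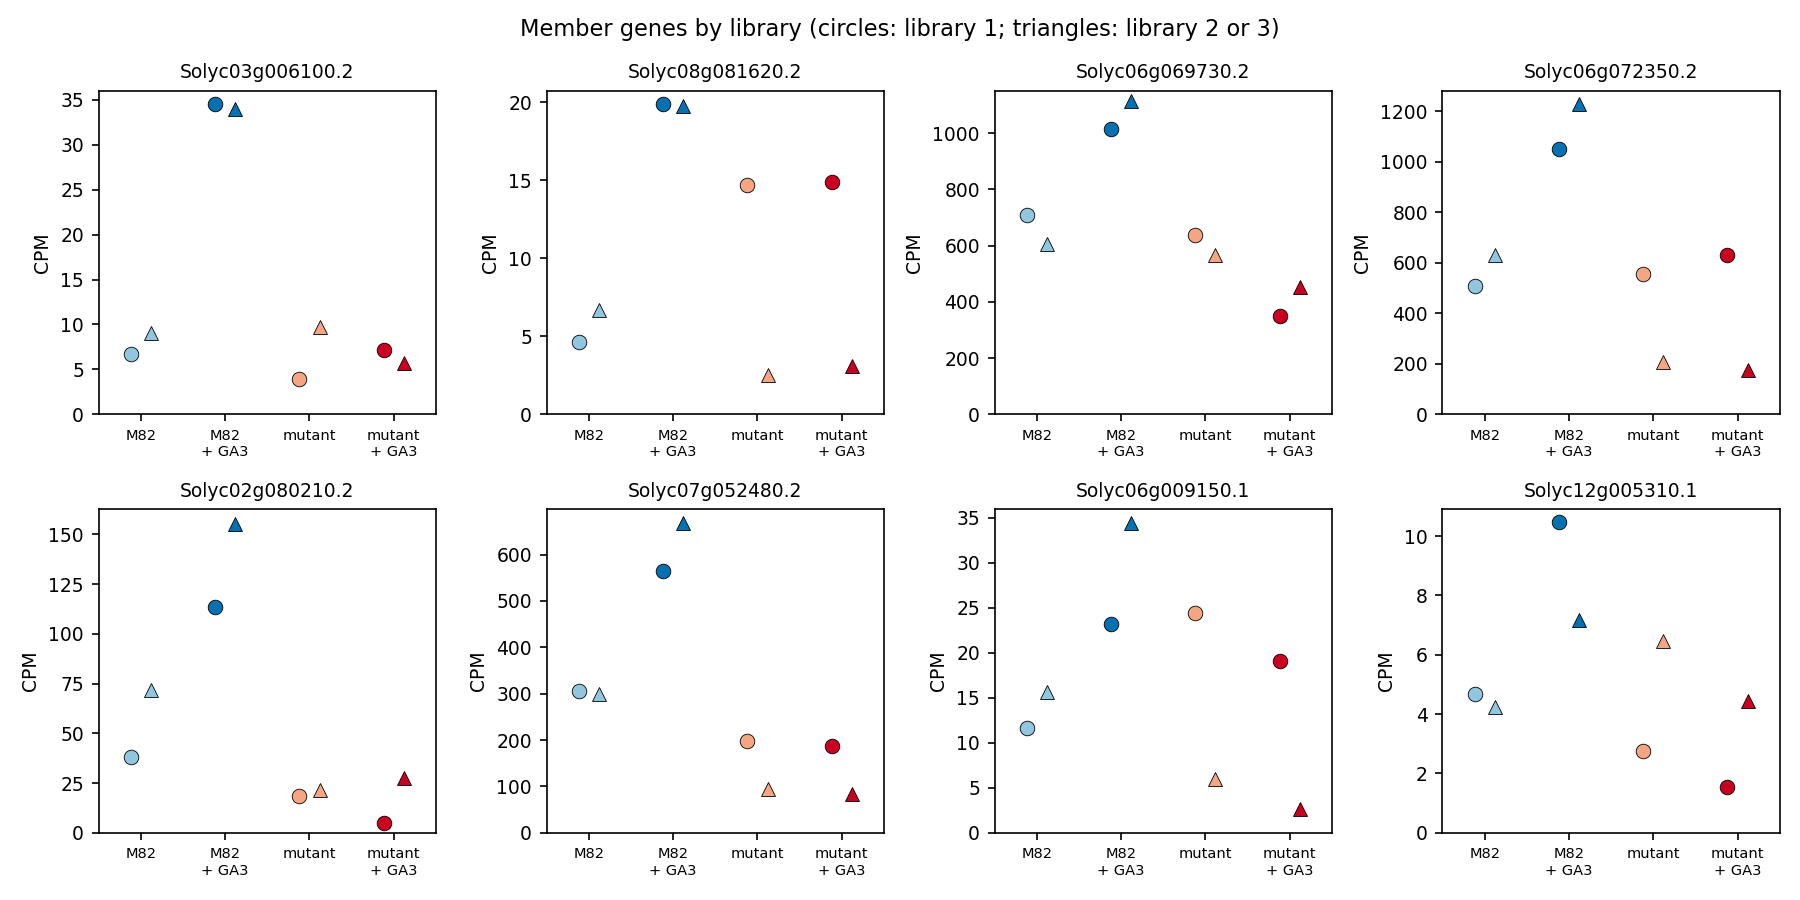
CPM (y axis, from 0) of 8 members in each library, by group (x axis), with circles for library 1 and triangles for library 2 or 3. In M82 both GA3 points stand above both untreated points in each panel. In Solyc08g081620.2, Solyc06g072350.2, Solyc07g052480.2 and Solyc06g009150.1 the mutant points separate by library number and not by GA3, with library 1 higher. In Solyc02g080210.2 and Solyc12g005310.1 they also separate by number, with library 3 higher.

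With GA3 in both genotypes, the mutant lay below M82 by a median of 1.28 log2 units on library totals and by 1.59 with TMM, and every member had a negative difference, from -3.46 to -0.24. The 2 mutant libraries lay below both M82 libraries in 56 of 57 members, where 10.7% of all genes did so. All 4 mutant libraries lay below both M82 libraries with GA3 in 55 members, against 7.58% of all genes. The other limits largely fix this contrast. By edgeR, 7 members (12.3%) were called lower in the mutant at an adjusted p under 0.05, against 0.164% of all genes. DESeq2 called 34 (59.6%), against 1.48%. The edgeR count of 7, among 65 calls of lower or higher over all genes, moved with the calls over all genes when single libraries were left out. It was 20 without either M82 library lacking GA3, among 243 and 231 calls. Without M82 libraries 1 and 2 with GA3 it was 1 and 0, among 10 and 2 calls. It was 3 without either untreated mutant library, among 15 and 14 calls, and 1 and 3 without mutant libraries 1 and 3 with GA3, among 12 and 43.

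Solyc02g080210.2 also lay furthest below M82 in this comparison, 8.32-fold on the means. Next was Solyc02g080220.2, which follows it in the table. Solyc02g080220.2 was at 29.4 and 36.8 CPM without and 68.9 and 82.2 CPM with GA3 in M82. In the mutant it was at 18.8 and 17.1 CPM without GA3 and at 8.26 and 21.2 CPM with GA3. In both genes library 1 of the mutant with GA3 was the lowest of the 8 libraries. Whether reads of these 2 neighbours were split between them by the authors' counting was not tested.

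The difference of the GA3 effects was tested as an interaction over all genes. By edgeR 0 members were called, as were 0% of all genes, and the smallest adjusted p among the members was 0.656. At an unadjusted p under 0.05 the test took 29 members (50.9%) with a lower effect in the mutant, against 2.41% of all genes. The rule set both effects that this contrast compares, so these counts describe the members and nothing is read from them. DESeq2 called 1 member (1.75%), against 0.0763% of all genes. This was Solyc03g111120.2, at 27.9 and 24.6 CPM without and 75.1 and 86.8 CPM with GA3 in M82. In the mutant it was at 19.6 and 21.4 CPM without GA3 and at 21.8 and 14.7 CPM with GA3. Its 4 mutant libraries lay below both untreated M82 libraries. It was named after its values were seen.

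The members also differed among themselves in how the 2 numbers of the mutant compared, a measure that the rule did not set a limit on. In 28 of 57 members (49.1%) both mutant libraries numbered 1 lay above both numbered 3, where 19.5% of all genes did so. In 13 members (22.8%) both numbered 3 lay above both numbered 1, where 12.8% of all genes did so. Together these are 41 of 57 members (71.9%), against 32.3% of all genes, 29.8% of the other 305 genes with the gap in M82 and 35.2% of the 7183 other genes inside the mutant limits. At least 2-fold differences in both treatments were found in 7 members with library 1 higher, or 12.3%, against 0.507% of all genes. The share was 2.95% of the other 305 genes with the gap and 0.278% of the 7183 other genes inside the mutant limits. With library 3 higher there was 1 such member, or 1.75%, against 0.188% of all genes. In those other sets the share was 0% and 0.167%. This pattern was noticed in the data and was not tested.

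Across the 57 members, the difference between library 1 and library 3 without GA3 correlated with that with GA3 at Pearson r = 0.63, and across all 14393 genes at r = 0.02. These points are genes of the same 4 libraries and are not independent replicates. The members' summed level was 3453 CPM in library 1 and 2302 CPM in library 3 of the mutant without GA3, and 3086 and 2151 CPM with GA3. Members with many counts weigh most in these sums, Solyc06g072350.2 among them, and 13 members had the opposite order.

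**Figure D4:**
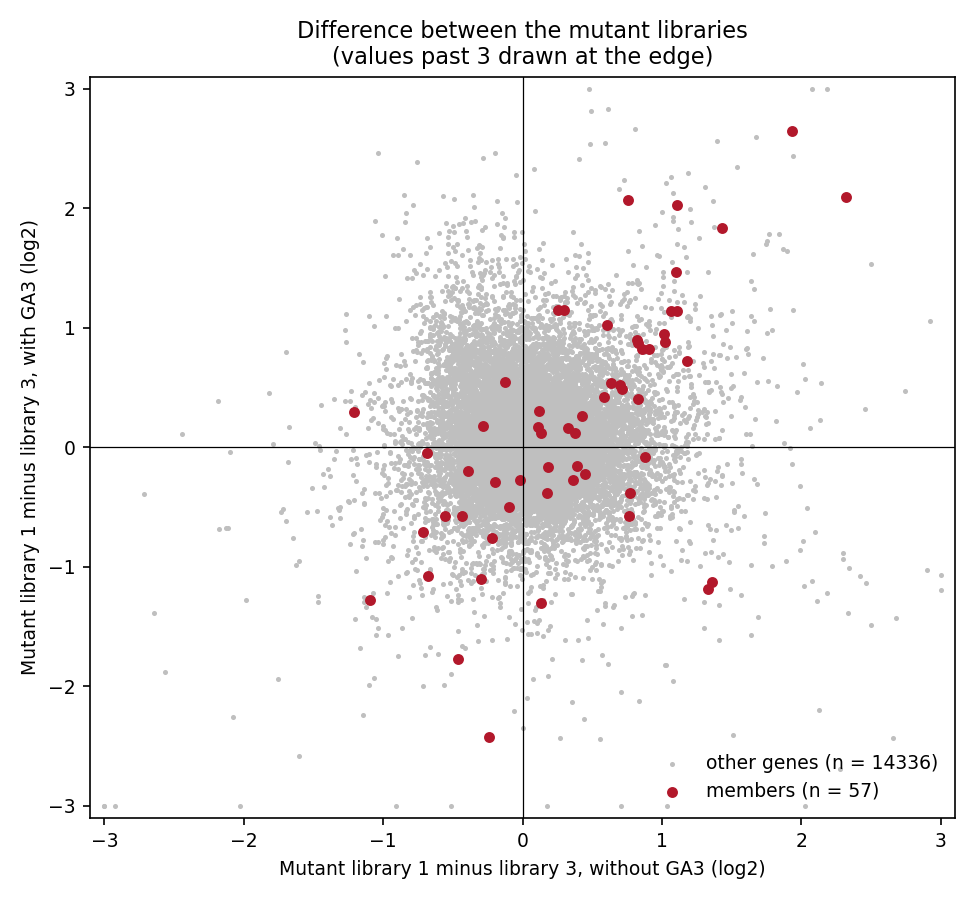
Difference between mutant library 1 and library 3 without GA3 (x axis, log2) and with GA3 (y axis, log2) for the 57 members (red) and the other 14336 genes that reached the minimum mean level (grey). Members spread along the rising diagonal (r = 0.63), while the cloud of all genes has no such tilt (r = 0.02).

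The 28 members with library 1 higher had median values of 0.10 and 0.13 above untreated M82 in the mutant libraries numbered 1, without and with GA3, and of -0.64 and -0.74 in those numbered 3. In M82 with GA3 the same 28 stood at 0.82 and 0.96. The 13 members with library 3 higher had medians of -0.22 and -0.33 in the libraries numbered 1 and of 0.25 and 0.37 in those numbered 3. For the former set library 1 of the mutant was near untreated M82 and library 3 below it, and for the latter set the numbers were on either side of it.

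Solyc06g009150.1 had the largest difference with library 1 higher. In M82 it was at 11.7 and 15.6 CPM without GA3 and at 23.2 and 34.4 CPM with GA3. Library 1 of the untreated mutant, at 24.4 CPM, was at the level of treated M82, and library 3, at 6.02 CPM, was below untreated M82. Averaged over both treatments, library 1 was 5.03-fold above library 3, and Solyc08g081620.2 was next in this order, at 5.24-fold on means in CPM. On the log2 scale their mean differences were 2.29 and 2.21.

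With library 3 higher, the largest difference belonged to Solyc02g080210.2, through its low value in library 1 with GA3. Solyc12g005310.1, on chromosome 12, was next. It was at 4.70 and 4.24 CPM without and 10.5 and 7.17 CPM with GA3 in M82. In the mutant, library 1 was at 2.76 CPM without and 1.54 CPM with GA3, and library 3 at 6.47 and 4.45 CPM. Library 3 of the untreated mutant was above untreated M82 and library 1 below it.

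The label of the set was therefore checked within each number. With only the mutant libraries numbered 1, 49 genes met the rule, and 38 of the 57 members were among them. With only those numbered 3, 44 genes met it, and 39 of the 57 were among them. Both numbers alone kept 26 members, and 6 were kept by neither. Of the 28 members with library 1 higher, 17 met the rule on number 1 and 28 on number 3. Of the 13 with library 3 higher, 12 met it on number 1 and 4 on number 3. The lower number lies below a mean that already met the genotype limit, so it meets that limit by the order alone. These counts by order are therefore a description. For the 31 members not kept by both, the rule held for the mean of the libraries and not for each number. Missing a limit on 1 number need not mean a clear rise in the mutant. Solyc02g080210.2 passed the limit of 0.3 on number 3 with a GA3 difference of 0.34, at 27.5 CPM, below both untreated M82 libraries. The mean CPM was also taken anew over the libraries left in, so a member near 2 CPM could be lost by that alone.

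The rule was also applied without single libraries. The count was 102 and 150 without M82 libraries 1 and 3 lacking GA3, 138 and 164 without M82 libraries 1 and 2 with GA3, and 33 without mutant library 1 lacking GA3. Leaving out an M82 library removes 1 of the values that the gap must clear, and 50 to 54 of the 57 members stayed in. Without mutant library 1 lacking GA3, 29 of the 57 stayed in.

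**Figure D5:**
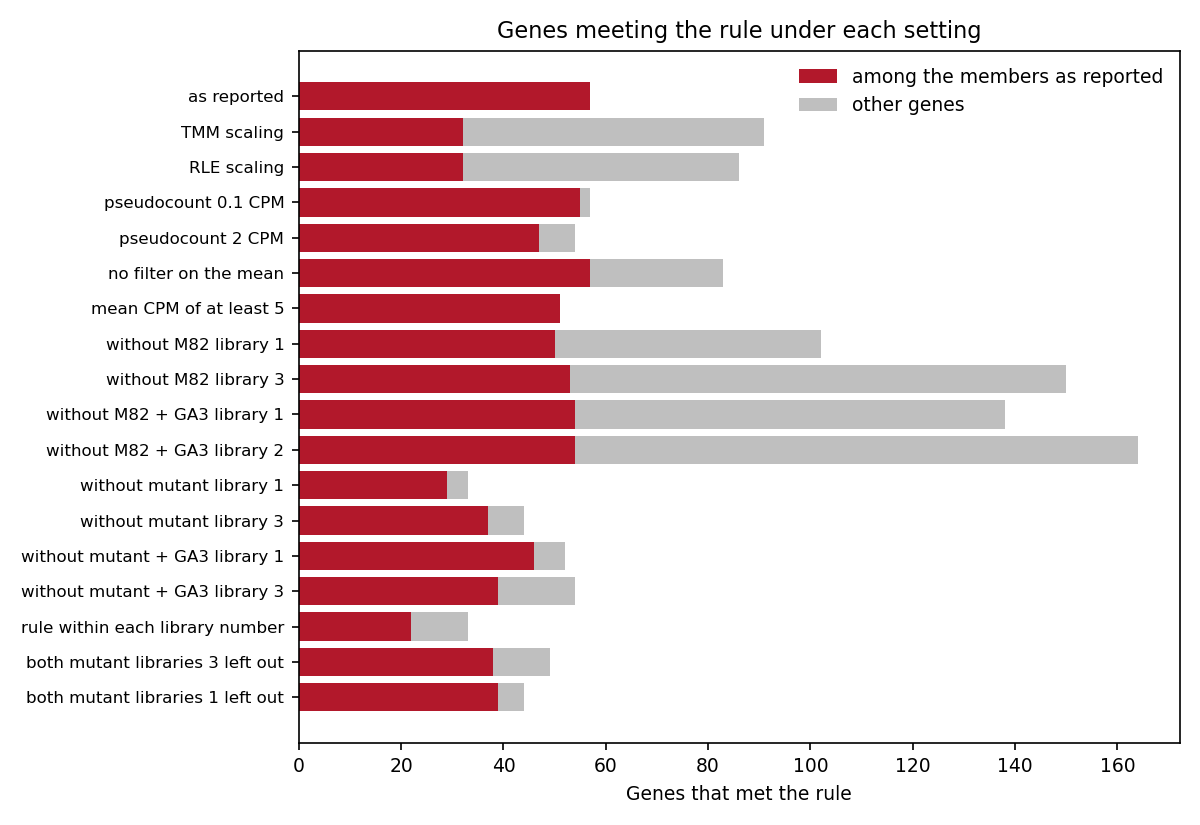
Number of genes that met the rule (x axis) under each setting (y axis), with the genes that are among the 57 members in red and other genes in grey. TMM and RLE scaling keep 32 members and add others, and leaving out an M82 library adds many genes and loses few members.

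By identifier, 12 members lay on chromosome 2 (21.1%, against 10.5% of the 14393 genes that reached the minimum mean), 9 on chromosome 6 (15.8% against 8.96%) and 8 on chromosome 3 (14% against 10.4%). Chromosome 1, with 13% of the genes, held 4 members, or 7.02%. The other chromosomes held 1 to 6 each, apart from number 0, which had 0.556% of the genes and 0 members. Of the members, 10 (17.5%) had another member within 20 rows of the table, which lists genes by identifier, as did 122 of the other 305 genes with the gap in M82 (40%) and 9 of the 84 genes found with the genotypes exchanged (10.7%). The sets differ in size, and a larger set has more neighbours by its size alone, so these shares are not compared. Only Solyc02g080210.2 and Solyc02g080220.2 were in consecutive rows.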

How the data were processed

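The authors deposited raw read counts per gene for 8 libraries, with 8 columns of DESeq-normalized counts that, per the file headers, belong to the same libraries and were not used. The submitters' processing notes name TopHat2 2.0.10, HTSeq 0.6.1p1 and DESeq2 1.6.3, and the genome build, annotation and counting options are not given in the sources used here. Of the columns, 3 carry a number 3 that no title has and were placed by group only.

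CPM were computed from library totals and compared with a pseudocount of 0.5. Tests used edgeR 4.0.16 in R 4.3.3 (filterByExpr, minimum count 10, TMM, robust quasi-likelihood fit of the 4 groups, 4 residual degrees of freedom, Benjamini-Hochberg adjustment over 18340 genes). DESeq2 1.42.0 without independent filtering was an alternative, with others in scaling, filter, pseudocount, library number as a block and left-out libraries. The edgeR test was tried on simulated counts for the GA3 contrasts in M82 and in the mutant. The genotype contrasts, the difference of the GA3 effects and DESeq2 were not part of this. Members, gene lists and tests were chosen with earlier results of these data known. The lists by function could not be applied, since identifiers have no names here. Named genes are the extremes of each comparison, 2 in each direction. The GA3 comparison in M82 and the genotype comparison without GA3 share the untreated M82 libraries.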

Additional observations from a re-analysis of the deposited data

Results flagged for a closer look

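In 3 members the GA3 libraries lay above both untreated ones in M82 and below both in the mutant. The rule fixed what is said of M82 here, and the 3 are 5.26% of the members, no more than the 6.57% of all genes with such separation in the mutant. Neither edgeR nor DESeq2 called the GA3 effect in the mutant, or the difference of the GA3 effects, for any of these 3. GA3 minus no GA3 in the mutant was -0.45 in Solyc04g080820.2, -0.60 in Solyc06g069730.2 and -0.65 in Solyc11g007770.1 on the log2 scale, against 1.385, 0.70 and 0.80 in M82. In the mutant, Solyc04g080820.2 was at 2.71 and 4.67 CPM without GA3 and at 2.42 and 2.52 CPM with GA3. Solyc11g007770.1 was at 6.06 and 4.61 CPM without and 2.86 and 3.58 CPM with GA3. Solyc03g111120.2 had a DESeq2 adjusted p of 0.0101 for the difference of the GA3 effects, and an edgeR adjusted p of 0.656. The rule chose this gene on both effects that the test compares, so these p-values lend it no support.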

How the results depend on the processing

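With library totals 57 genes met the rule, against 91 with TMM and 86 with RLE scaling, 33 when the rule was applied within each library number (22 of the 57), 369 without M82 library 3 lacking GA3 and M82 library 2 with GA3 together, and 33 to 164 when single libraries were left out. The cause of the change with scaling was not tested. Other pseudocounts, other filters on the mean and leaving out both mutant libraries of a number gave 44 to 83. The number of members that edgeR called for GA3 in M82 was 0 (3 over all genes), and 5 without the filter (92), 2 with library number as a block (33) and 6 with DESeq2 (108). For the genotypes with GA3 it was 7 (65 over all genes), and 27 without the filter (438), 20 with the block (200), 34 with DESeq2 (552) and 0 to 20 without single libraries (2 to 243). For the difference of the GA3 effects it was 0 (0), and 1 without the filter (14) and 1 with DESeq2 (20). The block changed no other count of members at an adjusted p under 0.05. Differences between number 1 and the other library correlated across 14393 genes at r = 0.587 between the 2 M82 groups and 0.0242 between the 2 mutant groups, at 0.273 and 0.236 between these M82 groups, without and with GA3, and the mutant with GA3, and at -0.0529 and -0.106 with the untreated mutant. The labels do not say that numbers pair libraries. Members below untreated M82 in all mutant libraries numbered 11, and 16 with TMM or RLE. With 2 libraries a group, depth limits the lowest members, and counting options are unknown.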
